A study of Mus musculus with 12 samples.

Results

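The comparison asked what CEBPA_V314VW, a mutant form of a myeloid transcription factor, adds to or takes from immature myeloid cells that already carry an activated cytokine receptor. Arrays of cells with CSF3R_T618I+CEBPA_V314VW, called the combined group here, were set against arrays of cells with CSF3R_T618I alone. The features described are all gene probe sets of the array, which are 22142 of its 28846 probe sets. They were chosen by their identifiers and not by their values. Of these, 19527 have 1 gene symbol in the platform annotation and the other 2615 are unnamed here.

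All arrays came from mouse HoxB8-ER cells, a line held at a stage resembling the granulocyte-macrophage progenitor by an estrogen-dependent HoxB8 protein and grown with stem cell factor. Each culture received a pair of MSCV retroviruses, 1 marked by GFP and 1 by mCherry, was sorted for both colours and rested for a week. Cells were then kept for 24 hours without estrogen, so the HoxB8 protein was being lost in every group. The combined group carried CEBPA_V314VW in the GFP vector and CSF3R_T618I in the mCherry vector. The CSF3R_T618I group carried the receptor and an empty GFP vector, the CEBPA_V314VW group carried the factor and an empty mCherry vector, and the empty vector group carried both vectors without a gene. Each of the 4 groups had 3 arrays, lettered A, B and C. Both mutant genes were expressed from a retrovirus in addition to the endogenous mouse Cebpa and Csf3r, and all arrays rest on 1 immortalised line. In phrases such as "without the receptor" and "receptor cells", the receptor means the CSF3R_T618I transgene. Mouse Csf3r itself was above background in every group, at 11.39 in empty vector and 10.92 in CEBPA_V314VW. The labels do not say whether the replicates were separate cultures, so p-values measure the spread between these samples, which may be technical.

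CEBPA is the factor that opens the granulocyte programme in progenitors. It binds DNA as a dimer through its basic region and leucine zipper and needs both for activity. CSF3R is the receptor for granulocyte colony-stimulating factor. It signals through JAK kinases and STAT proteins, and T618I makes it signal without ligand. Neutrophil precursors make their granule proteins in sequence: primary granule enzymes at the promyelocyte stage, secondary granule proteins later, and tertiary granule proteins and many surface receptors last.

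Values are RMA signals on the log2 scale, where a difference of 1 is a 2-fold difference. Array medians lay between 6.59 and 6.76, and arrays of 1 group correlated at 0.987 to 0.995. Background control probe sets averaged 4.98 to 5.27 per array, and a group mean at or below 5.27 was treated as not above background. Where only one of the groups was above background, the fold is given as "at least", counted against the mean over the dim group's arrays of each array's own background mean or the gene's signal, whichever was higher. Replicate C of the combined group and replicate C of CSF3R_T618I had the highest background means, 5.27 and 5.25, and the lowest array weights, 0.49 and 0.32. Array signals flatten near the top of their range, and the 95th percentile of all gene values was 10.81, so the fold changes of genes above it may be understated.

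The line was recognisable in both groups. All 10 measured markers of its own lineage were above background in the combined group and in CSF3R_T618I, and 0 of the 10 passed the test in either direction. Mpo, the myeloperoxidase of primary granules, averaged 13.74 in the combined group and 13.76 in CSF3R_T618I, with an adjusted p of 0.975 in limma. Few markers of other cell types passed, and most that did were falls in the mast cell, basophil and eosinophil list. In that list 12 of 16 markers had a negative change. By the adjusted p alone, 0.745 percent of all gene probe sets were higher and 0.854 percent were lower. Of 19 monocyte, macrophage and dendritic cell markers 1 rose and 0 fell, of 16 mast cell, basophil and eosinophil markers 0 rose and 3 fell, of 13 lymphoid markers 0 rose and 1 fell, and of 11 erythroid and megakaryocyte markers 0 passed. The monocyte markers at background in the combined group were Mertk, C1qa, Itgax, Flt3 and Xcr1, and the same genes apart from Flt3 were at background in CSF3R_T618I. Since RNA was taken from whole cultures, fewer cells of a type and less RNA per cell cannot be told apart.

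Mouse Cebpa itself read 12.17, 12.07 and 12.40 in the combined group, against 10.60, 10.82 and 10.73 in CSF3R_T618I. The 3 combined arrays all lay above the 3 CSF3R_T618I arrays, with a difference of 1.50 ± 0.11 (SE, limma adjusted p = 2.03e-05). Cebpa also rose by 0.98 ± 0.11 in CEBPA_V314VW against empty vector, where it averaged 12.01 and 11.03. These probe sets were designed for the mouse gene, and whether they also bind the human transgene cannot be told from the files. Csf3r averaged 11.72 ± 0.07 in the combined group and 12.09 ± 0.07 in CSF3R_T618I (SD, n = 3 each), a difference of -0.36 that did not pass (adjusted p = 0.0994). Hoxb8 averaged 11.13 in the combined group and 11.20 in CSF3R_T618I, and the groups overlapped.

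The groups differed in a small part of the array. Of the 22142 gene probe sets, 59 were at least 2-fold higher in the combined group at an adjusted p below 0.05, 0.266 percent of those tested. A further count of 54 probe sets, 0.244 percent, was at least 2-fold lower. By the adjusted p alone, with no fold threshold, 165 were higher (0.745 percent) and 189 were lower (0.854 percent). Where "rose" or "fell" is written of a single gene or a list member, it means this test. The median change over all gene probe sets was -0.02. The 59 higher probe sets had a median change of 1.35, and 12 of them changed more than 4-fold. The 54 lower probe sets had a median change of -1.26, and 6 of them changed more than 4-fold. In all 113 the 3 combined arrays lay wholly above or wholly below the 3 CSF3R_T618I arrays. Selection by fold and adjusted p on these same arrays makes that order likely. It was seen in 5.69 percent of all gene probe sets upward and in 8.03 percent downward.

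**Figure D1:**
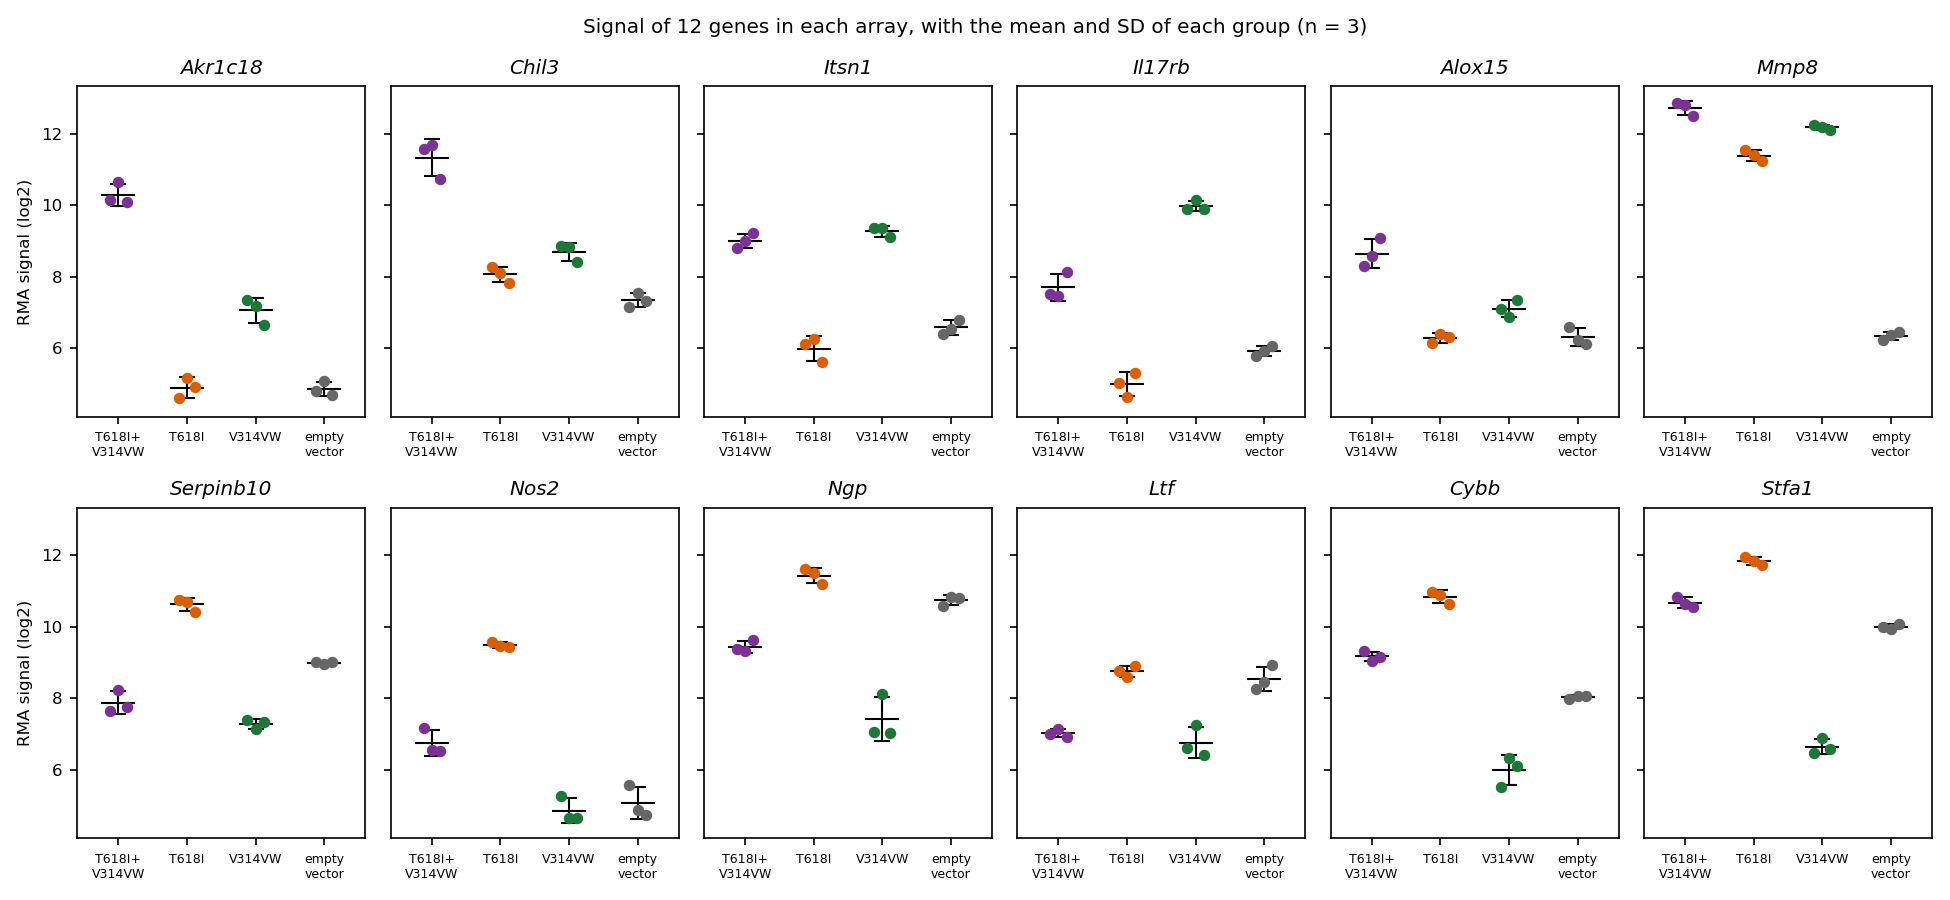
RMA signal (log2, y axis) of 12 genes in each of the 3 arrays of the combined group, CSF3R_T618I, CEBPA_V314VW and empty vector, with the group mean as a line and the SD as a bar. The upper row holds genes that rose in the combined group, led by Akr1c18 at 10.08 to 10.65 against 4.60 to 5.18 in CSF3R_T618I. The lower row holds genes that fell, and in each panel the 3 combined arrays do not overlap the 3 CSF3R_T618I arrays.

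Of 21 measured secondary and tertiary granule genes 8 fell and 2 rose, and the list median was -0.45 beside -0.02 over all gene probe sets. The genes that fell were Ltf, Ngp, Camp, Mmp9, Itgb2l, Pglyrp1, Ltb4r1 and Ceacam1. The count of 8 became 5 without replicate A of CSF3R_T618I and 4 without replicate C of both groups. Of 13 measured primary granule genes 0 rose and 1 fell, with a median of -0.02. The single member that fell was Cst7, an inhibitor of cathepsins, at -0.59. Prtn3 averaged 13.04 in the combined group and 13.03 in CSF3R_T618I, and Elane averaged 13.15 and 13.36 in the same order. Neither protease passed the test, with adjusted p-values of 0.985 and 0.601.

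Ngp, a cathelin-like protein of secondary granules, read 9.38, 9.31 and 9.63 in the combined group, against 11.60, 11.50 and 11.19 in CSF3R_T618I. All combined arrays were below all CSF3R_T618I arrays, and the difference was -1.99 ± 0.24 (adjusted p = 0.000756). Ltf, the iron-binding lactoferrin of the same granules, read 7.01, 7.14 and 6.91 in the combined group, against 8.75, 8.58 and 8.91 in CSF3R_T618I. It fell by 1.72 on the log2 scale (adjusted p = 0.000756). The combined group was close to the CEBPA_V314VW group in Ltf, which averaged 7.02 and 6.75, while CSF3R_T618I and empty vector averaged 8.75 and 8.54. Itgb2l, an integrin beta chain, averaged 7.94 in the combined group and 9.18 in CSF3R_T618I, a fall of 1.24 (adjusted p = 0.000132). Mmp9, the gelatinase of tertiary granules, read 8.72, 8.22 and 8.42 in the combined group, against 9.91, 9.42 and 9.64 in CSF3R_T618I. Its adjusted p of 0.0121 became 0.0673 without replicate B of the combined group, 0.0635 without replicate A of CSF3R_T618I and 0.108 without replicate C of both groups.

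The 2 members of the list that rose were Mmp8 and Chil3. Mmp8, neutrophil collagenase, read 12.86, 12.80 and 12.50 in the combined group, against 11.54, 11.39 and 11.23 in CSF3R_T618I, a rise of 1.33 ± 0.12 (adjusted p = 9.1e-05). In the absence of the receptor it averaged 12.18 in CEBPA_V314VW and 6.35 in empty vector. Chil3, a chitinase-like lectin also known as Ym1, read 11.56, 11.69 and 10.74 in the combined group, against 8.26, 8.10 and 7.83 in CSF3R_T618I. It rose 9.60-fold (log2 3.26 ± 0.23, adjusted p = 1.39e-05). The collagenase and the lectin thus moved opposite to lactoferrin and the other 7 members that fell.

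**Figure D2:**
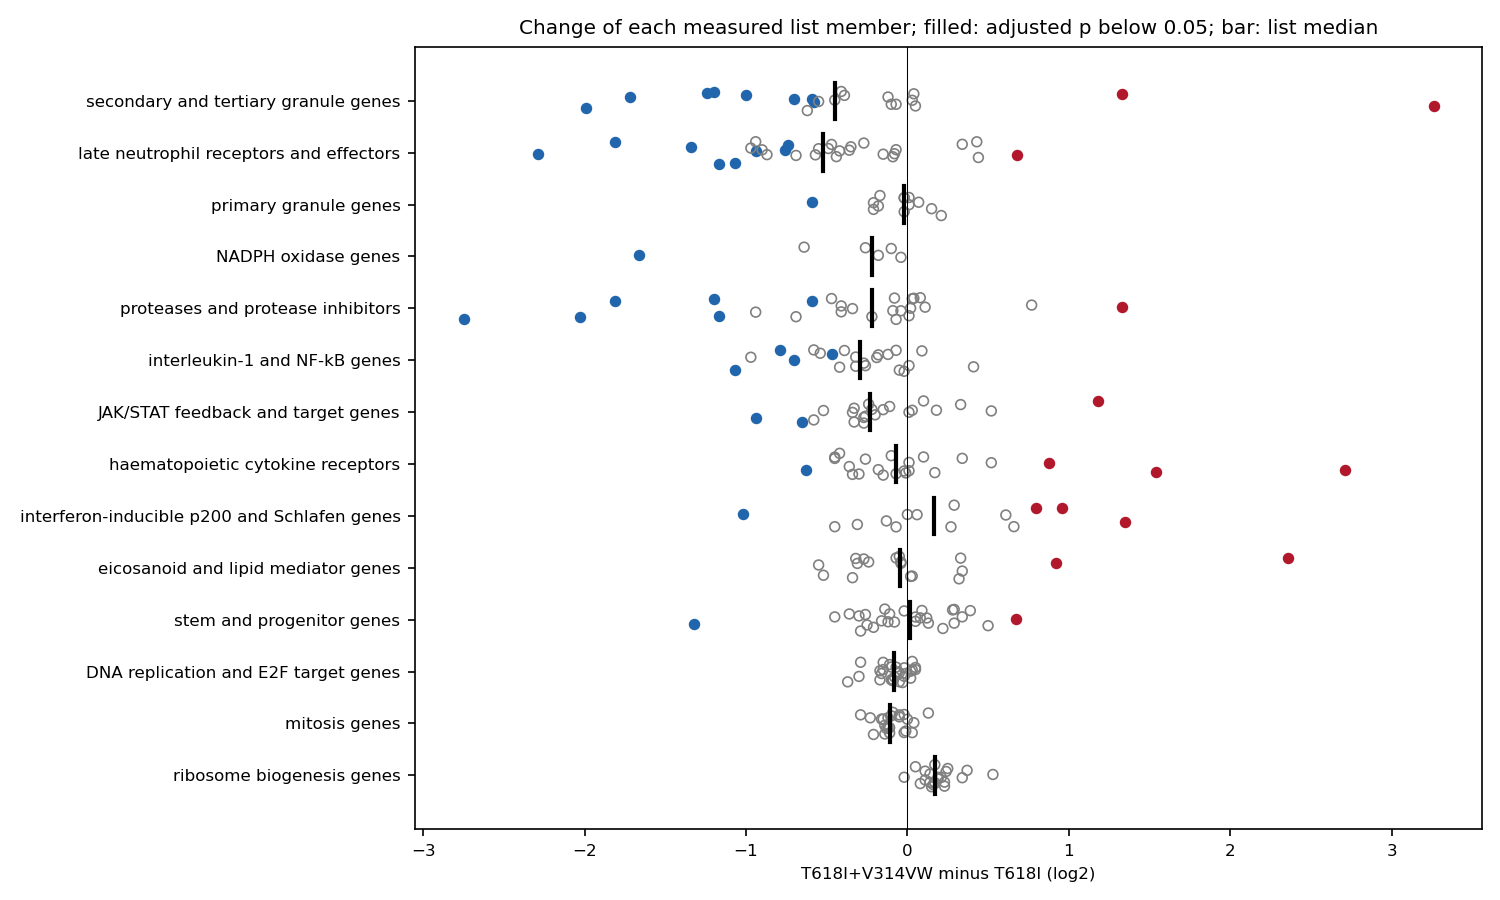
Log2 change in the combined group relative to CSF3R_T618I (x axis) of each measured member of 14 gene lists (rows), with filled points for members at an adjusted p below 0.05 and a vertical bar at the list median. The late neutrophil and secondary granule lists lie to the left of 0, with medians of -0.52 and -0.45. DNA replication, mitosis and ribosome biogenesis genes have no filled point.

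Of 30 measured late neutrophil receptors and effectors 8 fell and 1 rose, with a median of -0.52, and 26 of the 30 had a negative change. Leaving out single arrays gave 7 to 10 falls. The members that fell were Retnlg, Stfa3, Stfa1, Wfdc17, Il1r2, Wfdc21, Cxcr2 and Trem1. Retnlg, a secreted resistin-like protein of bone marrow granulocytes, read 8.21, 8.11 and 7.91 in the combined group, against 10.72, 10.34 and 10.04 in CSF3R_T618I. It fell by 2.29 on the log2 scale (adjusted p = 2.58e-05). Cxcr2, the chemokine receptor that draws neutrophils out of the marrow, averaged 10.24 in the combined group and 11.00 in CSF3R_T618I. It fell by 0.76 (adjusted p = 0.0089), which became 0.0566 without replicate C of both groups. The Wfdc17 call was lost in that setting too (0.0849). Il1r2, the decoy receptor for interleukin-1, averaged 9.40 in the combined group and 10.47 in CSF3R_T618I (adjusted p = 0.00238). The member that rose, Clec12a, changed by 0.68 with an adjusted p of 0.0486, and its call was lost when any array other than replicate C of the combined group was left out. Retnlg averaged 8.07 in the combined group, 10.37 in CSF3R_T618I, 4.61 in CEBPA_V314VW and 6.66 in empty vector.

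Stefins are cytosolic inhibitors of cysteine proteases, and mice carry a row of them on chromosome 16. In the order of the RefSeq annotation, 10 measured genes from Stfa2l1 to Stfa3 lie next to each other, and all 10 had a negative change, between -2.18 and -0.69 with a median of -1.04. Of these 10 genes 7 fell by the adjusted p and 6 fell at least 2-fold. The largest fall was that of Csta3, which read 8.33, 8.31 and 8.21 in the combined group, against 10.73, 10.57 and 10.08 in CSF3R_T618I (adjusted p = 1.64e-05). Stfa3 read 7.44, 7.09 and 7.10 in the combined group, against 9.22, 9.04 and 8.80 in CSF3R_T618I, a fall of 1.81. Stfa1 read 10.84, 10.64 and 10.54 in the combined group, against 11.95, 11.85 and 11.72 in CSF3R_T618I, a fall of 1.17. Outside the row the neighbours did not pass: Csta1 on one side changed by 0.11, and Casr, the calcium-sensing receptor gene on the other side, by 0.01. Csta1 was not above background in any group, so a fall could not have been measured for it. The row was picked after its values were seen. Its members are near copies of each other, as are the Serpinb, Mcpt, Chil, Ifi200, Clec4 and Akr1c genes below, so probes of 1 member may bind transcripts of another.

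**Figure D3:**
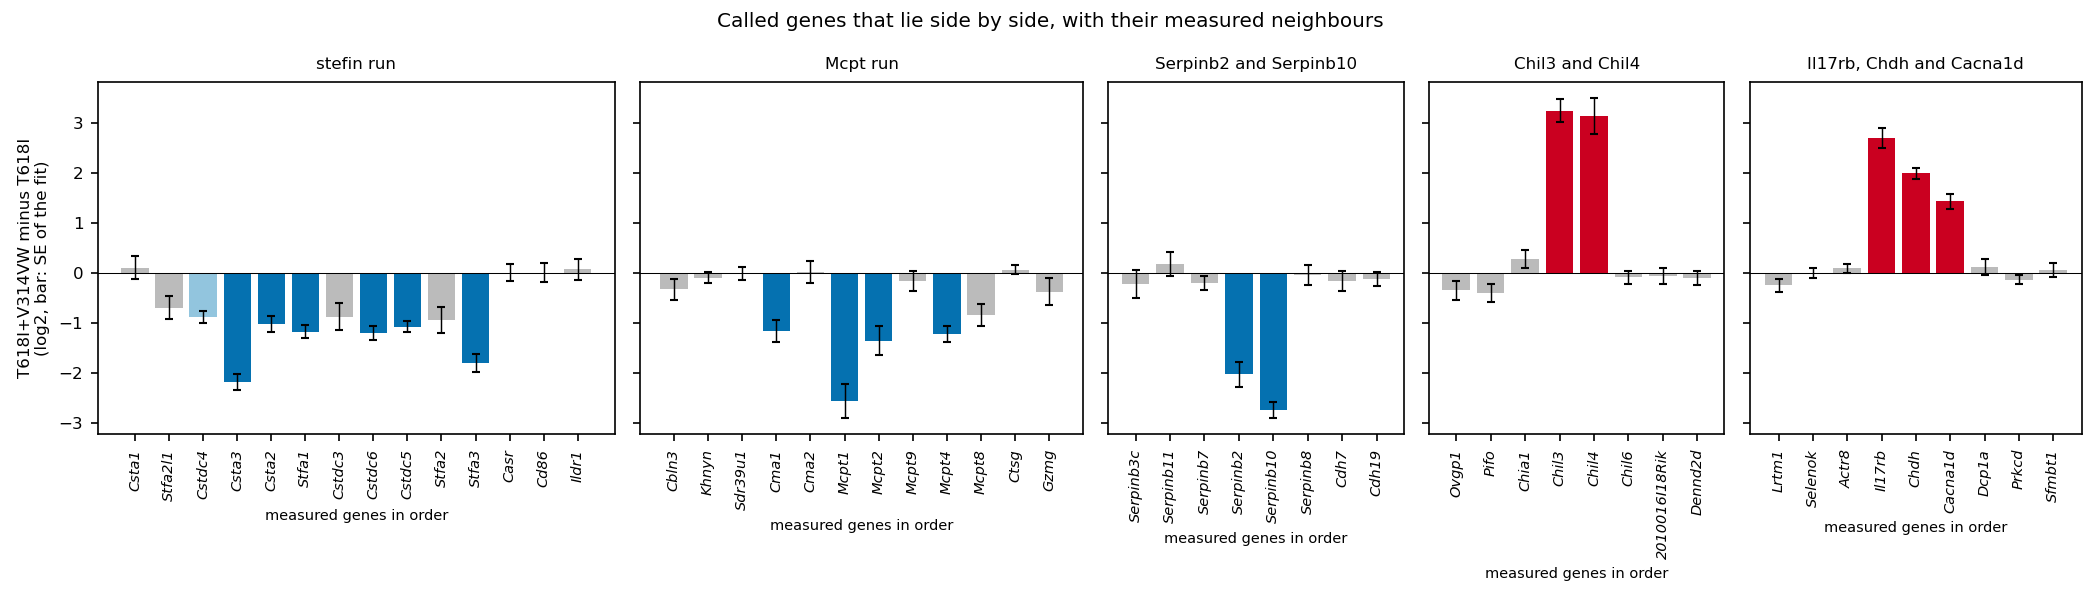
Log2 change in the combined group relative to CSF3R_T618I (y axis, bars with the SE of the fit) for measured genes in chromosomal order (x axis) at 5 places where called genes adjoin. Dark blue and red bars were called lower and higher, the light blue bar passed the adjusted p alone, and grey bars did not pass. The 10 stefin genes from Stfa2l1 to Stfa3 are all below 0, and Il17rb, Chdh and Cacna1d stand above neighbours that lie near 0.

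Promoter sequences of 5 genes that fell are shown because each holds a match to the C/EBP motif, and those of Chil3 and Akr1c18, which rose, are set beside them because they hold none. The windows are from RefSeq, build GRCm38.p6, run from 250 bases before to 50 bases after the annotated start and are written 5′ to 3′ on the strand of the gene. Capitals mark every match to TTGCNNAA on either strand. Ngp is at chr9:110419558-110419857 on the plus strand, Ltf at chr9:111019042-111019341 (plus), Csta3 at chr16:36210153-36210452 (plus), Retnlg at chr16:48872358-48872657 (plus), Stfa1 at chr16:36276898-36277197 (plus), Chil3 at chr3:106167515-106167814 (minus) and Akr1c18 at chr13:4150597-4150896 (minus).
Ngp: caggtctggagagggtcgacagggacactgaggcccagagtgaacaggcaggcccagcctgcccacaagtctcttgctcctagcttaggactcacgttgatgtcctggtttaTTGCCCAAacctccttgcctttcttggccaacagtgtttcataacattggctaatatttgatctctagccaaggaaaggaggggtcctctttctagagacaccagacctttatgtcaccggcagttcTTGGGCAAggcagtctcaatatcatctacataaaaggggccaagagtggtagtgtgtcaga
Ltf: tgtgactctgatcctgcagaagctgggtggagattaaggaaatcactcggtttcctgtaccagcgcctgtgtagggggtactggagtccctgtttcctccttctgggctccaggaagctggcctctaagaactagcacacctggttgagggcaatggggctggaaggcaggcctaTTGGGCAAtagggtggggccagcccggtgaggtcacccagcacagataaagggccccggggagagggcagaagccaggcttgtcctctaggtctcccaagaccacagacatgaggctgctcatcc
Csta3: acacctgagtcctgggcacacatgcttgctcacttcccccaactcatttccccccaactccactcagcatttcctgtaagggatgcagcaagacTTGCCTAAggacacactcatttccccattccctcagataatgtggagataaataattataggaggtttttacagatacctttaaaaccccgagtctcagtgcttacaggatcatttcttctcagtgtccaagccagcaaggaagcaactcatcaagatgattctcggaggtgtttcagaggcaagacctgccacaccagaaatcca
Retnlg: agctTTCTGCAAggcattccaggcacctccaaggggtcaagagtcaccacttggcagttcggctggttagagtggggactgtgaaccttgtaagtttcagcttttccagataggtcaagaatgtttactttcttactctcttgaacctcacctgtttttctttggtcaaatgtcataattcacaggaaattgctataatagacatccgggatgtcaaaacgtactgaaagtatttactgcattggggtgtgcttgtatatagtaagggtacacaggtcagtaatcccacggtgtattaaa
Stfa1: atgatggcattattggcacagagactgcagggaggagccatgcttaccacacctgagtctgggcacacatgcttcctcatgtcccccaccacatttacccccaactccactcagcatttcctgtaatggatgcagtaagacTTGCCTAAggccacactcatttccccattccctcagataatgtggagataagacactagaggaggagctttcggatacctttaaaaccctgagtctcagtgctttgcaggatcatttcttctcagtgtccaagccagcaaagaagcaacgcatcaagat
Chil3: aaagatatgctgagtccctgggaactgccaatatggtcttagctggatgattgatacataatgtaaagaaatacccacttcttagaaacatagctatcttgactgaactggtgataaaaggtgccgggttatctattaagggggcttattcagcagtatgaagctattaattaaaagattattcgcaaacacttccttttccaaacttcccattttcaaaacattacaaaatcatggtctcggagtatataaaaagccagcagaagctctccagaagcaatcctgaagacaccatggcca
Akr1c18: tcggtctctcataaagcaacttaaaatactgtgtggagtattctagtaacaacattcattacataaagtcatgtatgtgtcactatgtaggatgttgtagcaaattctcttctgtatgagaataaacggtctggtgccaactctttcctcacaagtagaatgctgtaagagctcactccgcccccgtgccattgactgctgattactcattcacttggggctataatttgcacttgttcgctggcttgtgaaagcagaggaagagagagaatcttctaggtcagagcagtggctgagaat

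The matches began at positions -138 and -11 from the start site in Ngp, -75 in Ltf, -156 in Csta3, -109 in Stfa1 and -246 in Retnlg. The 8 letters of the match are the same in Csta3 and Stfa1, TTGCCTAA. One of the Ngp matches, TTGGGCAA, has the same letters as that of Ltf. Across sets, TTGCNNAA was in 14 of 50 windows (28.0 percent) of genes called lower and in 8 of 55 windows (14.5 percent) of genes called higher, against 10.8 percent of all 32851 promoter windows. By gene, 13 of the 41 lower genes with a window had a match, and 8 of the 42 higher genes did, against 3298 of all 27025 genes. The 13 include Csta3, Cstdc5 and Stfa1 of the stefin row, which are near copies and so not independent. Among the 20 greatest falls 6 of 17 genes with a window had a match, and among the 20 greatest rises 2 of 18. The printed windows were picked for their matches: Serpinb10, Mcpt1, Cybb, Olfml2b and Stfa3 fell without a match, while Chil4 and Trpm6 rose with one. The PU.1 motif GAGGAA was in 40.0 percent of the lower and 25.5 percent of the higher windows, against 28.3 percent of all windows, and the STAT motif TTCNNNGAA in 12.0, 7.27 and 8.30 percent in the same order. Each motif was searched on both strands on its own, so matches of different motifs may share bases. A match is only a stretch of letters, and binding was not measured in these arrays.

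Nos2 and Cybb, enzymes of the antimicrobial response, fell. Nos2, inducible nitric oxide synthase, read 7.17, 6.54 and 6.52 in the combined group, against 9.57, 9.45 and 9.43 in CSF3R_T618I. It was 6.67-fold lower (log2 -2.74 ± 0.24, adjusted p = 5.39e-05). Without the receptor it was not above background in either group, at 4.85 in CEBPA_V314VW and 5.06 in empty vector. It was the only one of 10 nitric oxide and arginine genes to pass. Cybb, the membrane subunit of the NADPH oxidase that makes superoxide, read 9.31, 9.05 and 9.16 in the combined group, against 10.98, 10.89 and 10.63 in CSF3R_T618I. It fell by 1.66 ± 0.18 (adjusted p = 0.000271), while the other 5 oxidase genes measured did not pass.

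Serpinb10, an inhibitor of serine proteases made in blood cells, read 7.63, 8.24 and 7.75 in the combined group, against 10.76, 10.70 and 10.41 in CSF3R_T618I. It was 6.74-fold lower (adjusted p = 2.25e-06). Its measured neighbour Serpinb2, plasminogen activator inhibitor type 2, read 7.43, 8.10 and 7.51 in the combined group, against 9.93, 9.58 and 9.63 in CSF3R_T618I, and was 4.10-fold lower. Serpinb7 and Serpinb8 on either side of the pair were not above background. A different part of the serpin family rose: Serpinb9g averaged 7.73 in the combined group and 6.22 in CSF3R_T618I, and the adjacent Serpinb9f averaged 7.20 and 6.08 in that order. Mcpt1, a mast cell chymase, read 6.92, 6.38 and 7.88 in the combined group, against 9.89, 9.96 and 9.04 in CSF3R_T618I. The groups did not overlap, the spread was wide, and the fall of 2.57 had an SE of 0.34 (adjusted p = 0.00132).

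The neighbours of Mcpt1 bear on the marker count above. Cma1, Mcpt2 and Mcpt4 were each at least 2-fold lower, and the 3 falls among the mast cell markers (Mcpt4, Cma1 and Hdc) became 1 without replicate B of CSF3R_T618I. Mcpt4 was not above background in either group, and Cma1 was not above background in the combined group. Mcpt2 read 6.64, 6.88 and 7.76 in the combined group, against 8.54, 8.90 and 7.90 in CSF3R_T618I, with an adjusted p of 0.0328. That p rose above 0.05 without combined replicate A (0.144) or combined replicate B (0.128), without A (0.116) or B (0.141) of CSF3R_T618I, or any of the 3 empty vector arrays. The Cma1 call was likewise lost without combined replicate A (0.102) or combined replicate B (0.0502) without replicate B (0.103) or C (0.0669) of CSF3R_T618I, and without replicate C of both groups (0.115). Summed levels of the 16 mast cell, basophil and eosinophil markers were 13.69 to 13.80 in the combined group and 13.98 to 14.27 in CSF3R_T618I. In CEBPA_V314VW they were 13.89 to 14.05 and in empty vector 14.26 to 14.30. Il5ra and Ccr3 were at background in all 4 groups, and the part of these cells in the falls was not tested.

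Several other genes fell beyond 2-fold. Olfml2b, an olfactomedin-domain protein, averaged 9.35 in the combined group and 10.97 in CSF3R_T618I (adjusted p = 2.61e-05). Slc40a1, the iron exporter ferroportin, averaged 6.68 and 8.24 in that order. Ambp, the precursor of alpha-1-microglobulin and bikunin, fell by 1.59, and Rdh12, a retinol dehydrogenase, by 1.38. Pde2a, a cyclic nucleotide phosphodiesterase, fell by 1.30, and Prom1, the surface glycoprotein CD133, by 1.32. Slc2a3, a glucose transporter, averaged 9.28 in the combined group and 10.38 in CSF3R_T618I, and was the only one of 17 glycolysis genes to pass.

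Akr1c18, a reductase that inactivates progesterone, read 10.15, 10.65 and 10.08 in the combined group, against 4.60, 5.18 and 4.91 in CSF3R_T618I, which was not above background. The rise was at least 35.7-fold, and the fitted change was 5.40 ± 0.21 (adjusted p = 7.76e-08). It averaged 7.06 in CEBPA_V314VW and 4.86 in empty vector, so the combined arrays were the highest of the 12. Chil4, also called Ym2 and the neighbour of Chil3, read 10.64, 10.37 and 9.07 in the combined group, against 7.19, 7.24 and 6.20 in CSF3R_T618I. Replicate C was the lowest array in each of the pair of groups, and the groups stayed apart.

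Alox15, the lipoxygenase that oxidises arachidonic and linoleic acid, read 8.29, 8.57 and 9.08 in the combined group, against 6.14, 6.41 and 6.31 in CSF3R_T618I. It was 5.13-fold higher (adjusted p = 3.68e-05). Lipg, endothelial lipase, read 12.45, 12.40 and 12.23 in the combined group, against 11.49, 11.28 and 11.55 in CSF3R_T618I. These were the 2 of 18 eicosanoid and lipid mediator genes that passed, and the list median was -0.05. F7, coagulation factor VII, read 8.71, 8.14 and 8.18 in the combined group, against 5.62, 5.71 and 6.07 in CSF3R_T618I, 5.84-fold higher. Fabp5, a fatty acid carrier, averaged 8.68 in the combined group and 7.17 in CSF3R_T618I (adjusted p = 8.36e-05).

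A few cytokine receptor genes passed, in both directions. Of 23 haematopoietic cytokine receptors 3 rose and 1 fell, where 0.745 percent of all gene probe sets rose and 0.854 percent fell. In this list 9 changes were positive and 14 negative, with a median of -0.07. Il17rb, the receptor chain for interleukin-25, read 7.52, 7.45 and 8.14 in the combined group, against 5.04, 4.63 and 5.31 in CSF3R_T618I, which was not above background. It was at least 6.03-fold higher (adjusted p = 1.64e-05). Il6st, the signalling chain gp130 shared by the interleukin-6 family, read 9.40, 9.50 and 9.50 in the combined group, against 7.95, 7.91 and 7.92 in CSF3R_T618I. The arrays of each group lay close together, and the rise was 1.54 ± 0.09 (adjusted p = 3.03e-06). Cxcr1, a receptor for interleukin-8 type chemokines, read 7.80, 8.20 and 7.72 in the combined group, against 5.77, 6.40 and 6.12 in CSF3R_T618I, while the related Cxcr2 fell as given above. The third cytokine receptor that rose, Il21r, had an adjusted p of 0.0235 that was lost without replicate A (0.109) or C (0.09) of the combined group or replicate B (0.0827) or C (0.0724) of CSF3R_T618I, and without replicate C of both groups (0.172). The one that fell, Csf2ra, had an adjusted p of 0.0223 that was lost without any single array of the combined group (0.0721 to 0.0788), replicate A (0.0966) or replicate B (0.0829) of CSF3R_T618I, or replicate C of both groups (0.105).

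Il17rb lies in a row with Chdh and Cacna1d on chromosome 14, and all 3 rose. Chdh, which oxidises choline in mitochondria, read 9.19, 8.94 and 9.30 in the combined group, against 7.24, 7.15 and 7.03 in CSF3R_T618I, a 4.01-fold rise (adjusted p = 2.25e-06). Cacna1d, a pore subunit of L-type calcium channels, averaged 7.63 in the combined group and 6.18 in CSF3R_T618I. On either side, Actr8 changed by 0.10 and Dcp1a by 0.12, and neither passed. A further calcium channel subunit from another place, Cacna2d2, averaged 8.30 in the combined group and 6.68 in CSF3R_T618I (adjusted p = 0.00157).

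Itsn1, an endocytic scaffold, read 8.80, 8.99 and 9.21 in the combined group, against 6.11, 6.25 and 5.60 in CSF3R_T618I, 8.08-fold higher (adjusted p = 2.47e-06). Tsc22d1, a leucine zipper protein induced by transforming growth factor beta, averaged 9.62 in the combined group and 7.53 in CSF3R_T618I. Clec4b2, a C-type lectin, averaged 8.54 and 6.75 in that order, and Sh2d1b1, an adaptor of SLAM-family receptors, averaged 8.89 and 7.26. Havcr2, the inhibitory receptor TIM-3, read 6.12, 6.24 and 5.61 in the combined group and was not above background in CSF3R_T618I, at least 1.89-fold higher. Trpm6, a magnesium channel, and Teddm3 were also not above background in CSF3R_T618I and were at least 2.34-fold and at least 3.64-fold higher in the combined group. Of 14 measured interferon-inducible p200 and Schlafen genes 3 rose and 1, Slfn4, fell. Of the 3, Ifi209 averaged 6.63 in the combined group and 5.28 in CSF3R_T618I. The count of rises in the list was 1 without replicate A of the combined group, replicate A of CSF3R_T618I, replicate B of CSF3R_T618I or replicate C of both groups. Ifi213, the measured neighbour of Ifi209, is outside the list and rose by 1.42 (adjusted p = 0.00132).

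A few targets of the receptor's own pathway passed, in both directions. The list of 22 measured JAK/STAT targets and feedback regulators held 1 gene that rose and 2 that fell, and 15 of the 22 had a negative change. Over all gene probe sets 0.745 percent rose and 0.854 percent fell. The list median was -0.23 beside -0.02 over all gene probe sets. Socs2, a suppressor of cytokine signalling, read 7.76, 8.12 and 8.06 in the combined group, against 6.88, 6.60 and 6.91 in CSF3R_T618I. Cish, another member of that family, read 7.05, 7.06 and 7.17 in the combined group, against 8.12, 8.17 and 7.83 in CSF3R_T618I. So the pair moved in opposite directions, by 1.18 and by -0.94, each with an adjusted p under 0.05 (0.00113 and 0.00287). Bcl2l1, which encodes the survival protein BCL-XL, fell by 0.65. Socs3, a feedback inhibitor of CSF3R, averaged 8.67 in the combined group and 8.91 in CSF3R_T618I, and Pim1, a STAT-induced kinase, averaged 12.40 and 12.39. Neither passed, with adjusted p-values of 0.41 and 0.987.

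Of 22 interleukin-1 and NF-kB genes 4 fell and 0 rose, with a median of -0.29. The members that fell were Il1r2, Tnfaip2, Tnf and Nfkbia. The count was 2 without replicate B of the combined group, replicate A of CSF3R_T618I, replicate B of CSF3R_T618I or replicate C of both groups. Tnfaip2, a protein induced by tumour necrosis factor, averaged 10.40 in the combined group and 11.20 in CSF3R_T618I (adjusted p = 0.00582).

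Few transcription factors or progenitor genes passed the test, and no measured gene of DNA replication or mitosis did. Of 32 C/EBP family and granulocyte or monocyte factors, Cebpa rose and Cebpd fell, and 30 did not pass. Cebpd averaged 9.90 in the combined group and 10.59 in CSF3R_T618I (adjusted p = 0.00824). Cebpe, the factor required for secondary granules, averaged 9.23 in the combined group and 9.69 in CSF3R_T618I, which missed the threshold (adjusted p = 0.068). Spi1, which encodes PU.1, averaged 13.36 and 13.39 in that order. Of 28 stem and progenitor genes 1 rose and 1 fell. The rise, that of Satb1 (adjusted p = 0.0171), was lost without combined replicate A (0.0702), combined replicate B (0.0835), replicate C of CSF3R_T618I (0.0639) or replicate C of both groups (0.0699). Kit averaged 9.78 in the combined group and 9.86 in CSF3R_T618I, while CEBPA_V314VW and empty vector averaged 11.35 and 11.54. Myb read 12.36, 12.44 and 12.46 in the combined group, against 12.15, 12.11 and 12.16 in CSF3R_T618I. The groups did not overlap, but the change of 0.28 did not pass (adjusted p = 0.199). Of 29 DNA replication genes and 23 mitosis genes, 0 passed in either direction, with medians of -0.08 and -0.11. Of 22 ribosome biogenesis genes 0 passed, though 21 had a positive change, with a median of 0.17.

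The same addition can be read in cells without the receptor, from arrays that do not enter the group means of the main comparison. Those arrays do enter its estimate of spread, because all groups were fitted together. The shared counts that follow are therefore not an independent check of the calls. Of the 59 probe sets called higher, 28 also rose in CEBPA_V314VW against empty vector, 0 fell and 31 did not pass. In that comparison 1.01 percent of all gene probe sets rose. Of the 54 called lower, 32 also fell, 0 rose and 22 did not pass, where 0.953 percent of all gene probe sets fell. Across all gene probe sets the changes with and without the receptor had a Pearson correlation of 0.391 and a Spearman correlation of 0.233. Over the 113 called probe sets the values were 0.703 and 0.738, and choosing probe sets for large changes can by itself raise such values. These are descriptions across genes, which are not independent replicates. The lower probe sets had median levels of 7.71 in the combined group, 9.12 in CSF3R_T618I, 6.02 in CEBPA_V314VW and 7.32 in empty vector. For the higher probe sets the medians were 7.58, 6.08, 6.94 and 5.93 in the same order.

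**Figure D4:**
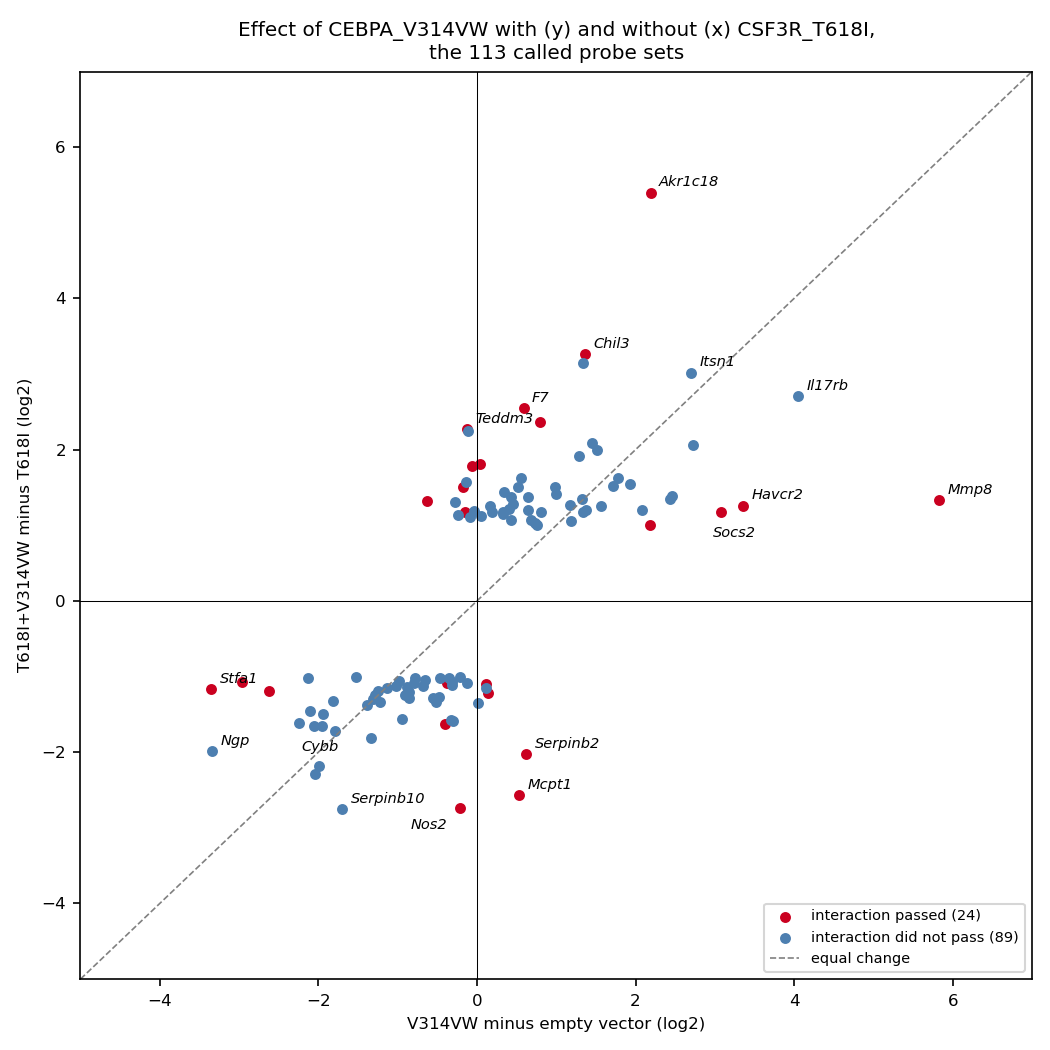
Log2 change made by CEBPA_V314VW in cells with CSF3R_T618I (y axis) against its change in cells without it (x axis), for the 113 called probe sets. Red points, 24 in number, passed the test of the difference between both changes, and the dashed line marks equal change. Akr1c18 lies far above the line at 5.40 and 2.19, and Mmp8 far to the right of it at 1.33 and 5.83.

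Whether the effect differed with and without the receptor was tested directly as an interaction. It passed for 72 gene probe sets (0.325 percent), of which 25 were above 0 (0.113 percent) and 47 below 0 (0.212 percent). Among the 113 called probe sets 24 passed, 14 of the higher and 10 of the lower. Of the 14 higher, 10 had an interaction above 0, meaning a greater rise in receptor cells. Of the 10 lower, 7 had an interaction below 0, meaning a greater fall in receptor cells, though several of these were not above background in empty vector. Slc2a3 changed by -1.10 with the receptor and by 0.12 without it, where it averaged 8.31 in CEBPA_V314VW and 8.19 in empty vector, an interaction (adjusted p = 0.0141) that was lost when any of 3 arrays was left out in turn (0.0529 to 0.0542). Nos2, Mcpt1, Serpinb2, Mcpt4 and an unnamed probe set had such an interaction too. They averaged 5.06, 3.63, 5.20, 3.80 and 4.54 in empty vector, which is not above background. A fall without the receptor could therefore not have been measured for them. Stfa1 is the opposite case: it changed by -1.17 with the receptor and by -3.35 without it, where it averaged 6.64 in CEBPA_V314VW and 9.99 in empty vector. Mmp8 had the largest interaction of the called probe sets, -4.50, and was near the top of the signal range in the combined group. For genes such as Ltf, Retnlg, Csta3, Rdh12 and Itsn1 the interaction did not pass, with changes of 0.06, -0.25, -0.18, 0.00 and 0.32 on the log2 scale. Retnlg and Csta3 averaged 4.61 and 4.70 in CEBPA_V314VW, which is not above background. Their falls without the receptor may therefore be understated, and their interactions cannot show equal effects.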

How the data were processed

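Total RNA (100 ng) was labelled by the WT Plus protocol and hybridised to Clariom S Mouse arrays. Images were processed with Affymetrix Command Console, and the authors deposited log2 signals made by RMA in Expression Console, which corrects background, normalises between arrays and summarises probes. The RMA version, probe sequences and genome build are not given in the sources used here. All 12 arrays were fitted with limma 3.58.1 in R 4.3.3, with 1 mean per group, and p-values were adjusted by Benjamini-Hochberg over the 22142 gene probe sets. Simulated arrays with known changes were used to check the fit. A probe set was called at an adjusted p below 0.05 and at least 2-fold. The interaction was (combined minus CSF3R_T618I) minus (CEBPA_V314VW minus empty vector). Precision is limited by 3 arrays per group, with a median SE of 0.15 for the comparison. Where a group mean was not above the highest mean of the background controls (5.27), the fold is given as at least the brighter group's mean over the dim group's mean of, per array, the higher of that array's own background control mean and the gene's signal.

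Genes were eligible to be named by this rule, and not all are printed: Cebpa, Csf3r, Hoxb8 and genes the study discusses for these arrays, the called genes with the 20 greatest rises and the 20 greatest falls (1 symbol, no predicted models), the 5 most changed members of every list, and the 10 greatest interactions among called probe sets. Others named (the neighbours of called genes, Elane, Prtn3, Mpo, Kit, Spi1, Cebpe, Socs3, Pim1, Cacna1d, Serpinb9f) were chosen after their values were seen. The comparison, its lists (29 gene lists and 5 marker lists, of which 601 of 665 genes had a named probe set) and the named genes were chosen with earlier results of these data known. The main fit did not pair arrays by replicate letter. Deviations of arrays with the same letter correlated at -0.03, 0.15 and 0.16 between the groups compared. With 3 arrays per group these values cannot settle whether letters mark shared cultures or batches, and the labels do not say. Alternatives covered scaling, dim probe sets, a replicate block, the arrays fitted, weights, a covariate, the test and each array left out.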

Additional observations from a re-analysis of the deposited data

Results flagged for a closer look

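The effect of CEBPA_V314VW differed with and without CSF3R_T618I for 20 named genes that also passed in the combined group against CSF3R_T618I, by limma's interaction with Benjamini-Hochberg adjustment over all gene probe sets. Each value is the log2 change with the receptor minus the log2 change without it. In receptor cells the rise was greater for Akr1c18 (3.21, adjusted p = 0.000492), Teddm3 (2.40), F7 (1.96), Chil3 (1.90), Clec4b2 (1.85), Cxcr1 (1.77), Serpinb9g (1.68) and Alox15 (1.56). The fall was greater there for Mcpt1 (-3.10), Serpinb2 (-2.65), Nos2 (-2.53, adjusted p = 0.00529), Mcpt4 (-1.36) and Slc2a3 (-1.22). The rise was smaller there for Mmp8 (-4.50, adjusted p = 8.09e-08), Havcr2 (-2.10), Socs2 (-1.90), Ifi211 (-1.73), Ccl6 (-1.26) and Satb1 (-0.97), and the fall was smaller for Stfa1 (2.18, adjusted p = 0.000183). Mcpt4 was not above background in any group and Teddm3 only in the combined group. Nos2 and Mcpt1 were not above background in CEBPA_V314VW or empty vector, nor was Serpinb2 in empty vector, so a fall without the receptor could not have been measured for these genes or Mcpt4.

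The interaction of 13 of these genes passed in all 18 settings run. That of Mcpt1 was lost without replicate A of the combined group (adjusted p = 0.0559) or replicate A of empty vector (0.052). That of Slc2a3 was lost without replicate B of the combined group (0.0532), replicate B of CSF3R_T618I (0.0542) or replicate A of empty vector (0.0529). Those of Chil3, Alox15, Cxcr1, Mcpt4 and Satb1 were each lost in 7 to 14 of the 18 settings, with adjusted p up to 0.088, 0.113, 0.0855, 0.0848 and 0.143 in that order.

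Among the 64 unmapped transcript probe sets, which the comparison did not use, 1 passed: the probe set annotated as Aopep, an aminopeptidase gene, was higher in the combined group by 0.74 on the log2 scale. Of the 64, 5 had an unadjusted p below 0.05.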

How the results depend on the processing

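The 59 higher and 54 lower calls became 48 to 62 and 47 to 65 under the other scalings, filters, weights and sample choices, and 52 to 61 and 44 to 65 when single arrays were left out. An unpaired t-test on the 6 arrays compared, which does not share the spread between genes, was also run. At an unadjusted p below 0.05 and 2-fold it gave 60 higher and 55 lower. After Benjamini-Hochberg it gave 3 and 1, with or without the fold threshold. The study analysed these arrays in the Transcript Analysis Console, so these are not counts of its own array test. Of 76 named genes that passed, 75 lost their call in at least 1 setting, mostly in the unpaired t-test. With only the 6 arrays compared in limma, 76 passed higher and 74 lower by the adjusted p alone. Array weights gave 340 lower and 40 interactions among called probe sets in place of 189 and 24. Without replicate C of both groups 106 passed higher. Leaving out single arrays gave 107 to 152 passing higher and 107 to 177 passing lower, with the lowest counts without replicate B of CSF3R_T618I (107 higher, 111 lower), replicate A of CSF3R_T618I (107 lower) and replicates A and B of the combined group (117 lower each), and 17 to 26 interactions. The replicate block, which treats arrays of the same letter as belonging together, gave 57 higher and 54 lower calls, 132 and 152 passing, and 22 interactions. Adding the 64 unmapped transcripts, chosen after seeing the data, left all 5 counts as they were. The Hoxb8 change of -0.07 turned to 0.07 without replicate B of the combined group and to 0.02 without replicate C of CSF3R_T618I, was between -0.14 and 0.07 without single arrays and passed in no setting. Of the 59 higher probe sets, 12 were not above background in CSF3R_T618I alone and a further 4 were above background in neither group.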
